A study of Mus musculus with 4 samples.

Results

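The genes examined here carry the switch in glucose use of the maturing heart. They are the glucose transporters Slc2a1 and Slc2a4, the hexokinases Hk1 and Hk2, the phosphofructokinases Pfkm and Pfkp, the phosphofructokinase regulator Pfkfb2, the lactate dehydrogenase subunits Ldha and Ldhb, and the pyruvate kinase Pkm. Their members in the data were all peaks of open chromatin that overlapped one of the 10 gene bodies or lay within 20 kb of either end, 101 of 87948 peaks in all. The assay was ATAC-seq, whose transposase inserts adapters where chromatin is open, on heart tissue of mice at postnatal day 14. There were 2 wild-type libraries and 2 Carm1 mutant libraries. Carm1 encodes an arginine methyltransferase that acts on histones and transcription coactivators. The labels named neither the allele, a strain nor the sex, and did not say whether the whole organ was used or whether animals were pooled.

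The fetal heart burns mainly glucose and lactate, and after birth it turns to fatty acids. Several steps of glycolysis are served by 2 or more genes with different timing. The transporter GLUT1, from Slc2a1, gives way to the insulin-responsive GLUT4, from Slc2a4, and hexokinase 1, from Hk1, gives way to hexokinase 2, from Hk2. The muscle-type phosphofructokinase, from Pfkm, and the heart-type lactate dehydrogenase subunit, from Ldhb, are prominent in the adult heart. Pfkp and Ldha are more prominent in tissues that rely on glycolysis. Pfkfb2 makes the sugar bisphosphate that activates phosphofructokinase and is the regulator typical of the heart. Pkm yields a fetal and an adult enzyme by splicing of 1 gene, so its accessibility cannot separate them. Slc2a1, Hk1, Pfkp and Ldha are called fetal-type here, and Slc2a4, Hk2, Pfkm, Pfkfb2 and Ldhb adult-type.

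The RefSeq promoter table (GRCm38.p6) held 17 transcription starts for 9 of the 10 genes. The 250 bases before 3 of these starts are shown, because the Slc2a1 and Ldha regions had the smallest p-values among the 10 genes and Ldhb is the partner of Ldha. Capitals mark ACGTG, the core of the hypoxia response element, on either strand. The windows lie at chr4:119108495-119108744 (plus strand) for Slc2a1, chr7:46845554-46845803 (plus strand) for Ldha and chr6:142507958-142508207 (minus strand) for Ldhb, and each overlaps the strongest peak at its start.
Slc2a1: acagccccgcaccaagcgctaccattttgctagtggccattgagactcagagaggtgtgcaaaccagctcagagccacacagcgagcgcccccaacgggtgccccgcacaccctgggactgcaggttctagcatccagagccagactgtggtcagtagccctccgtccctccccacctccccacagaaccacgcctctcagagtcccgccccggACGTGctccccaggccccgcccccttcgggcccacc
Ldha: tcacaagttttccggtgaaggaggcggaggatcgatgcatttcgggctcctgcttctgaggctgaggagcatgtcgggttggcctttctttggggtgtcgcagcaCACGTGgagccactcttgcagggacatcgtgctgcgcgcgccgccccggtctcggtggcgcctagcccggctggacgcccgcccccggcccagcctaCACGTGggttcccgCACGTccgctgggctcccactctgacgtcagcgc
Ldhb: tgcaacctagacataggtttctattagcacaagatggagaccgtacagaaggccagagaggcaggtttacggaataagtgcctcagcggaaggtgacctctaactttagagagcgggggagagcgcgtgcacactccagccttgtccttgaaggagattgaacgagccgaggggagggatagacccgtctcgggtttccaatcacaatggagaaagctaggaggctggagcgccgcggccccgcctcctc
Matches were counted on both strands, so that each CACGTG (the E-box, which contains ACGTG) gives 2. ACGTG had 5 matches before this Ldha start, 1 before the Slc2a1 start and 0 before the Ldhb start. The window before the other listed Ldha start (chr7:46846832-46847081), in the same peak, had 0. At least 1 match stood in 8 of the 17 windows, at 6 of the 9 genes, and in 16.6% of all 32851 windows of this length in the table. GGGCGG, the GC box, stood in 6 of the 17 and in 32.7% of all windows, and CACGTG in 3 of the 17 and in 6.02% of all. The MEF2 site was in 0 of the 17 and in 0.508% of all. These are letters of the reference, not sites shown to be bound.

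The libraries held 15945420 to 19091969 counts in peaks, of which the 101 peaks took 0.144% to 0.150%. The 2 libraries of each genotype were not copies of each other, with a chi-square of 4.09 per degree of freedom between the wild-type pair and 5.76 between the mutant pair. Nothing in the labels says how the replicates were obtained, and the p-values measure only the spread between these libraries. The strongest peak at the start of Carm1 had 90.1 and 89.5 CPM (counts normalised to the TMM-adjusted library size) in the wild type and 91.4 and 95.5 CPM in the mutant, and it does not check the genotype, since the altered part of the gene is not given.

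Few peaks passed the threshold for a difference between the genotypes, at these genes as in the whole table. In edgeR's quasi-likelihood test, with p adjusted over all 87948 peaks and a threshold of 0.05, 1 of the 101 peaks was higher in the mutant, 2 were lower and 98 were not called. That share of 2.97% stood against 5.50% of all peaks. The median log2 fold change of the 101 peaks, mutant over wild type, was 0.06, against 0.00 for all peaks. Both lower peaks belonged to adult-type genes, Pfkfb2 and Ldhb, and the higher peak lay downstream of Pkm. None of the 39 peaks at fetal-type genes was called, and DESeq2 and limma voom also called 0. An unadjusted p under 0.05 was reached by 6 of the 39 (15.4%), all 6 of them higher, against 21.8% of all peaks. It was reached by 5 of the 50 peaks at adult-type genes, 1 higher and 4 lower, which is below that share too. The share of all peaks covers both directions and was not split by direction. The 6 fetal-type peaks lay at Slc2a1, Hk1 and Pfkp, with several at the same gene. Peaks of the same gene in the same 4 libraries are not independent. Mutant and wild-type libraries did not overlap in 46 of the 101 peaks, 45.5%, and in 51.5% of all peaks. The plot of fold changes shows how the 101 peaks spread around 0.

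**Figure D1:**
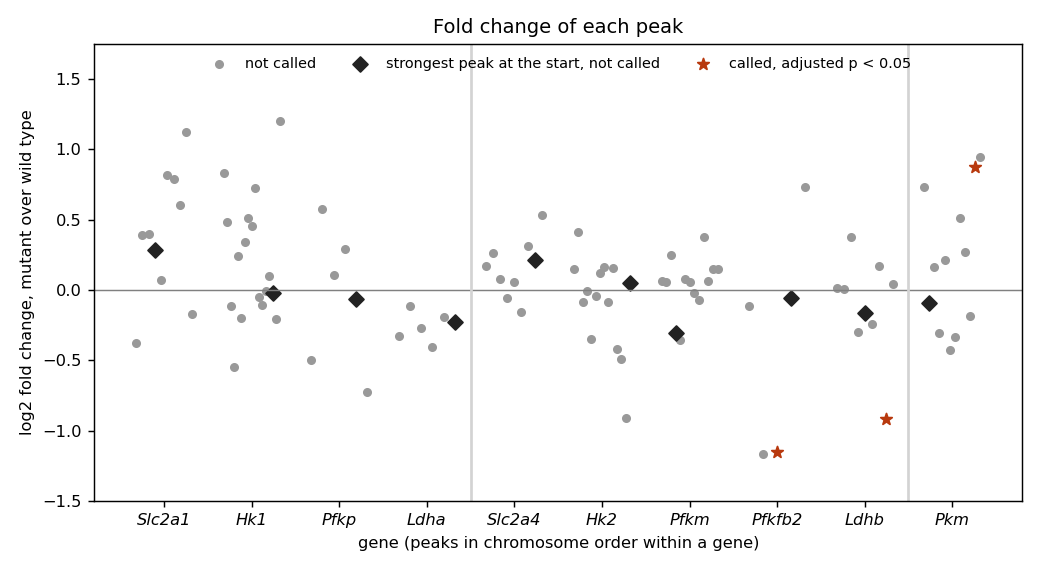
Log2 fold change (mutant over wild type, edgeR) of each of the 101 peaks, by gene, in chromosome order within a gene, with fetal-type genes on the left, adult-type genes in the middle and Pkm on the right. Diamonds are the strongest peak at each gene's start, stars the 3 called peaks; all 10 diamonds lie between -0.31 and 0.28.

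The called peak of Pfkfb2 lay in the gene body (chr1:130710531-130711365, mm10), with its midpoint 3628 bp downstream of the nearest listed start. The annotation used gives no exons, so it cannot be placed in an exon or intron. It had 9.79 and 10.5 CPM in the wild type and 4.26 and 4.86 CPM in the mutant. Both mutant libraries stood below both wild-type libraries. The log2 fold change was -1.16 (SE 0.25, edgeR adjusted p = 0.0118). The call was lost in the fit that left out wild-type replicate 2 (adjusted p = 0.097). A weaker peak further into the gene (chr1:130705529-130705990) had 3.0 and 2.74 CPM in the wild type and 0.91 and 1.64 CPM in the mutant, and it was not called (log2 fold change -1.17, SE 0.40, edgeR adjusted p = 0.0936).

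At Ldhb the called peak lay outside any annotated protein-coding gene (chr6:142521264-142522041), 13307 bp upstream of the gene. It had 16.4 and 14.8 CPM in the wild type and 9.37 and 7.13 CPM in the mutant. The groups did not overlap, and the log2 fold change was -0.92 (SE 0.22, edgeR adjusted p = 0.0205). The call was lost without wild-type replicate 1 (adjusted p = 0.149) or wild-type replicate 2 (0.0901). The peak on its far side (chr6:142524879-142525229) had 9.90 and 10.2 CPM in the wild type and 10.9 and 9.84 CPM in the mutant, so the groups overlapped there.

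The higher peak lay 12168 bp beyond the 3′ end of Pkm, inside the neighbouring gene Gramd2 (chr9:59691540-59692492), so it belongs to Pkm only by the distance rule. It had 9.85 and 11.5 CPM in the wild type and 13.8 and 25.4 CPM in the mutant. The groups did not overlap, but mutant replicate 2 was far above the other mutant library. The log2 fold change was 0.88 (SE 0.24, edgeR adjusted p = 0.0378). It was 0.37 without mutant replicate 2 (adjusted p = 0.378), and the call was also lost without wild-type replicate 1 (0.199) or replicate 2 (0.105) and with DESeq2 (0.0668) or limma voom (0.0666). A further peak in Gramd2 (chr9:59695321-59695932) had 2.83 and 2.84 CPM in the wild type and 6.02 and 4.92 CPM in the mutant (edgeR adjusted p = 0.0697).

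**Figure D2:**
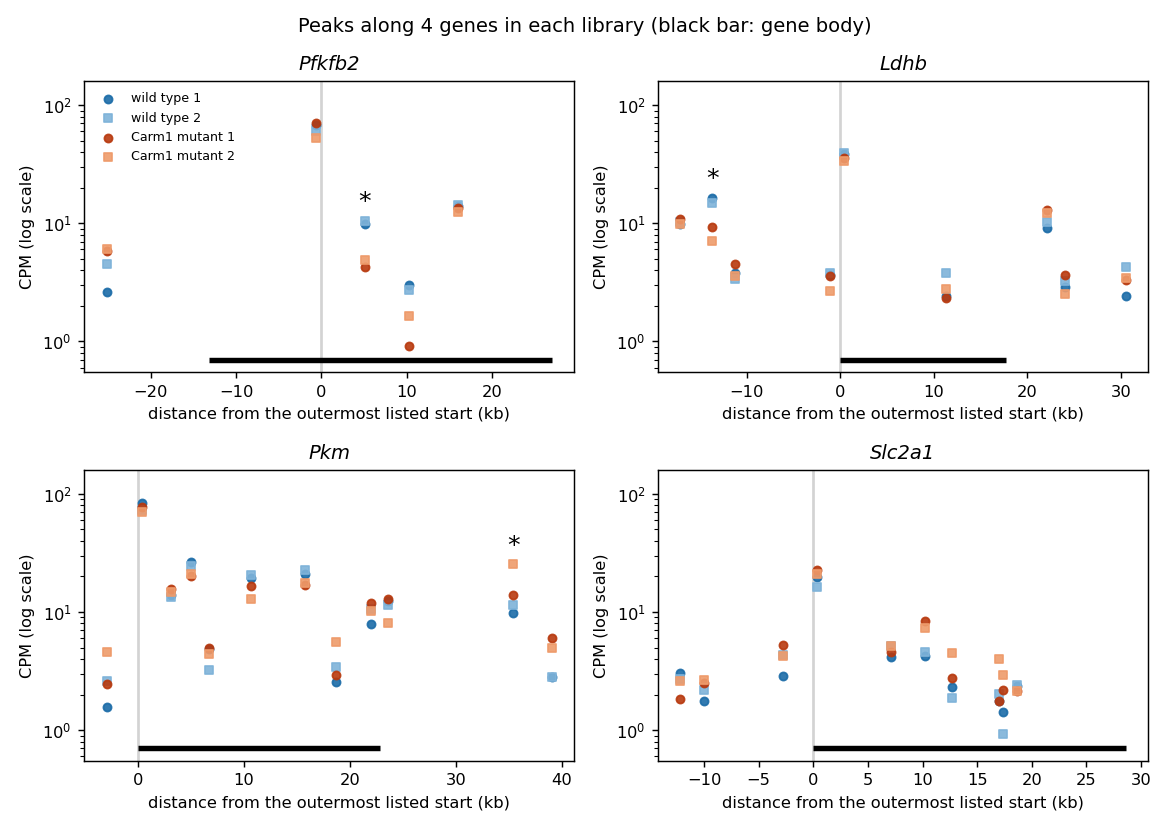
CPM (log axis) of every peak at Pfkfb2, Ldhb, Pkm and Slc2a1 in each of the 4 libraries, against distance in kb from the outermost listed start in the direction of transcription. Asterisks mark the 3 called peaks and the black bar the gene body; at the start peaks of all 4 genes the libraries lie close together, while wild-type points lie above mutant points at the called peaks of Pfkfb2 and Ldhb.

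To give 1 value per gene, the counts of all its peaks were summed, and the sums were tested over 16983 protein-coding genes with the same rule and window. None of the 10 sums was called at an adjusted p of 0.05 by edgeR, DESeq2 or limma voom, against 3.56% of all genes by edgeR, and 2 of the 10 had an unadjusted p under 0.05 by each tool, as did 3031 of the 16983 genes by edgeR. The median log2 fold change of the 10 sums was 0.00, against 0.03 for all genes. In 4 of the 10 sums, those of Slc2a1, Slc2a4, Ldha and Ldhb, mutant and wild-type libraries did not overlap, as in 48.0% of all genes.

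Slc2a1 had the smallest p of the 10 sums. Its 10 peaks summed to 43.9 and 42.2 CPM in the wild type and to 54.0 and 56.5 CPM in the mutant. Both mutant libraries stood above both wild-type libraries. The log2 fold change was 0.36 (SE 0.12, unadjusted p = 0.00583, edgeR adjusted p = 0.0942), and it lay between 0.33 and 0.39 when any 1 library was left out. With the replicate number as a block the edgeR adjusted p was 0.0414, while without it DESeq2 gave an adjusted p of 0.131 and limma voom 0.102. Of its 10 peaks 8 had a log2 fold change above 0 and 2 below 0. The smallest p belonged to a peak in the gene body (chr4:119118625-119119267), with 4.24 and 4.59 CPM in the wild type and 8.33 and 7.26 CPM in the mutant (log2 fold change 0.82, SE 0.26, edgeR adjusted p = 0.0717). Its start peak (chr4:119108534-119109540) had 19.9 and 16.2 CPM in the wild type and 22.7 and 21.1 CPM in the mutant. There too the groups did not overlap (log2 fold change 0.28, SE 0.18, edgeR adjusted p = 0.39). Among 16982 other genes the summed log2 CPM, centred over the 4 libraries, lay closest to that of Slc2a1 at Elane, Fcgr1 and Ptpn14 (Euclidean distances 0.020, 0.021 and 0.024), which with 4 libraries describes only these libraries.

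GLUT1 is also the transporter of endothelial cells, so marker genes of these and other cell types were read at their start peaks. In tissue, fewer cells of a type and less accessibility per cell cannot be told apart. All 8 cardiomyocyte markers had such peaks. They summed to 810 and 785 CPM in the wild type and to 973 and 851 CPM in the mutant. Both mutant sums were higher, but the markers did not all move alike. Ryr2 was lower in both mutant libraries (60.7 and 55.8 CPM in the wild type, 51.8 and 42.5 CPM in the mutant). At Tnnt2 and Pln the groups overlapped. All 7 endothelial markers had start peaks, with 158 and 114 CPM in the wild type and 117 and 108 CPM in the mutant. There the groups overlapped. The endothelial receptor gene Tie1 was the single marker called on any of the lists, where 5.50% of all peaks were called. It was lower (28.2 and 20.02 CPM in the wild type, 15.9 and 13.2 CPM in the mutant, log2 fold change -0.72, edgeR adjusted p = 0.0375). Of the other endothelial markers, Cdh5 had a log2 fold change of 0.21 and Erg of 0.00, and the rest were below 0. Only Klf1 and Epor of the 6 erythroid markers had start peaks, with 32.8 and 22.6 CPM in the wild type and 37.2 and 34.6 CPM in the mutant. The globin genes Hbb-bt and Hba-a1 had no peak. The groups overlapped for the 6 fibroblast markers, at 75.7 to 82.5 CPM in the wild type and 76.3 to 90.1 CPM in the mutant. They also overlapped for mural markers (4 of 5 genes with peaks), leukocyte markers (1 of 6, with no peak at Ptprc or Csf1r), skeletal muscle markers (3 of 6) and neuronal and Schwann markers (2 of 6). The part of these shifts in the values of Slc2a1 and of the other genes was not tested.

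At Slc2a4 the 9 peaks summed to 272 and 282 CPM in the wild type and to 327 and 287 CPM in the mutant. The mutant libraries were higher, the lower of them by less than the spread within the mutant pair, and the log2 fold change was 0.15 (SE 0.08, edgeR adjusted p = 0.386). Slc2a4 is short and its neighbours are close: only 3 of the 9 peaks were nearest to Slc2a4 itself, and the strongest overlapped Eif5a. The peak at its higher-coordinate end (chr11:69947089-69949464), which also had the smallest p, held 62.5 and 71.4 CPM in the wild type and 85.8 and 69.5 CPM in the mutant. There the groups overlapped (log2 fold change 0.21, SE 0.14, edgeR adjusted p = 0.404).

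**Figure D3:**
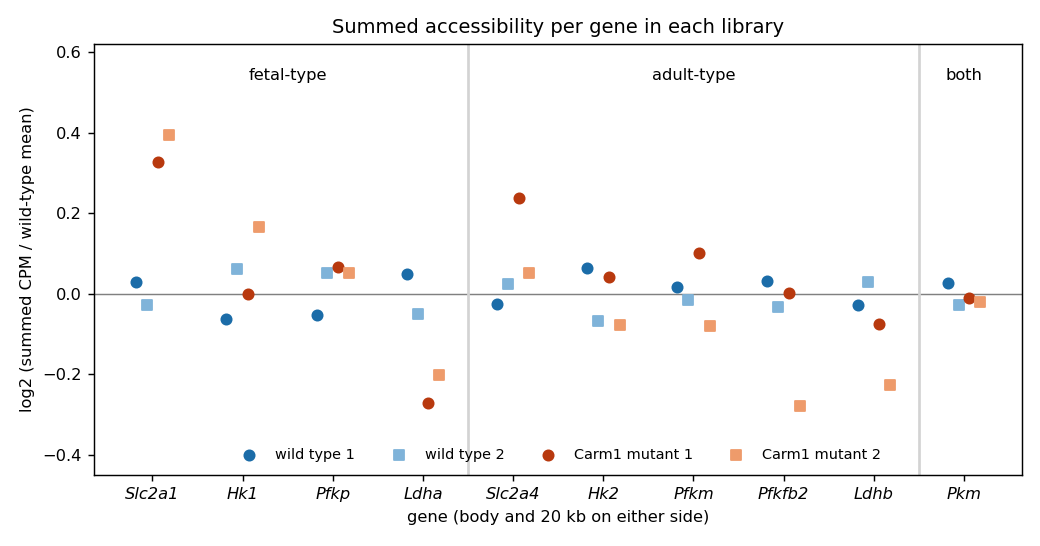
Summed CPM of all peaks in the gene body and 20 kb on either side, as log2 of the ratio to the wild-type mean, for each gene and library. Both mutant libraries lie above the wild type at Slc2a1 and below it at Ldha, while at Hk1, Hk2, Pfkp, Pfkm, Pfkfb2 and Pkm the groups overlap.

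The hexokinases, which trap glucose in the cell by phosphorylation, did not differ past the threshold. The 17 peaks of Hk1 summed to 187 and 203 CPM in the wild type and to 195 and 219 CPM in the mutant, and the 14 peaks of Hk2 to 191 and 175 CPM and to 189 and 174 CPM. The groups overlapped for both genes, with log2 fold changes of 0.08 (SE 0.09) and -0.02 (SE 0.09). The start peak of Hk1 (chr10:62338155-62341377) had 76.3 and 80.5 CPM in the wild type and 74.3 and 79.9 CPM in the mutant, and that of Hk2 (chr6:82771917-82774961) had 46.5 and 45.6 CPM and 50.7 and 44.4 CPM. Their peaks with the smallest p lay elsewhere. That of Hk1 (chr10:62261131-62261540), inside the neighbouring gene Tacr2, had 3.28 and 3.82 CPM in the wild type and 6.20 and 6.44 CPM in the mutant (log2 fold change 0.83, SE 0.28, edgeR adjusted p = 0.0898). That of Hk2 (chr6:82770999-82771342), in the gene body near its start, had 3.79 and 3.46 CPM in the wild type and 1.95 and 1.89 CPM in the mutant (log2 fold change -0.91, SE 0.35, edgeR adjusted p = 0.129). In both peaks the groups did not overlap, and neither was called.

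Phosphofructokinase commits sugar to glycolysis, and neither of its genes here differed past the threshold. The 6 peaks of Pfkp summed to 74.8 and 80.5 CPM in the wild type and to 81.3 and 80.4 CPM in the mutant (log2 fold change 0.06, SE 0.10). The 13 peaks of Pfkm summed to 201 and 196 CPM in the wild type and to 213 and 188 CPM in the mutant (log2 fold change 0.01, SE 0.08). Within Pfkm the strongest start peak (chr15:98107768-98109383) had 27.2 and 28.3 CPM in the wild type and 21.4 and 23.5 CPM in the mutant. Both mutant libraries were lower there, without a call (log2 fold change -0.31, SE 0.17, edgeR adjusted p = 0.293). A second start peak, shared with Senp1 (chr15:98092536-98093921), had 24.1 and 20.7 CPM in the wild type and 30.8 and 22.2 CPM in the mutant, so its groups overlapped. A further start peak of Pfkm (chr15:98111618-98112551) had 14.6 and 11.97 CPM in the wild type and 11.9 and 8.77 CPM in the mutant (log2 fold change -0.36, SE 0.23, edgeR adjusted p = 0.375). Both mutant libraries were lower there, by little in the case of replicate 1. The start peak of Pfkp (chr13:6646935-6649396) overlapped as well, at 35.4 and 39.6 CPM against 34.7 and 37.2 CPM. The Pfkp peak with the smallest p (chr13:6633487-6634434), in the gene body, had 7.07 and 13.5 CPM in the wild type and 15.7 and 15.1 CPM in the mutant (log2 fold change 0.58, SE 0.25, edgeR adjusted p = 0.176). Its wild-type libraries stood far apart: without wild-type replicate 1 the log2 fold change was 0.20, and without replicate 2 it was 1.12.

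The 5 peaks of Pfkfb2 summed to 97.0 and 92.8 CPM in the wild type and to 95.1 and 78.2 CPM in the mutant (log2 fold change -0.13, SE 0.11, edgeR adjusted p = 0.579). Its start peak, shared with Yod1 (chr1:130715196-130718060), made up most of it, with 67.7 and 60.9 CPM in the wild type and 70.6 and 53.2 CPM in the mutant. Its groups overlapped (log2 fold change -0.06, SE 0.15).

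The sums of both lactate dehydrogenase genes were somewhat lower in the mutant libraries, and neither was called. The 6 peaks of Ldha summed to 110 and 103 CPM in the wild type and to 88.1 and 92.5 CPM in the mutant (log2 fold change -0.24, SE 0.10, unadjusted p = 0.0279, edgeR adjusted p = 0.211). All 6 had a log2 fold change below 0, from -0.41 to -0.11. The Ldha peak with the smallest p lay upstream of the gene (chr7:46837911-46838657), with 11.3 and 11.3 CPM in the wild type and 7.66 and 9.34 CPM in the mutant (edgeR adjusted p = 0.309). The start peak of Ldha (chr7:46844779-46847540), which covers the whole Ldha window printed above, had 61.6 and 57.1 CPM in the wild type and 52.4 and 49.2 CPM in the mutant. Both mutant libraries were lower (log2 fold change -0.23, SE 0.14, edgeR adjusted p = 0.359).

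At Ldhb, whose subunit prevails in the oxidative adult heart, the 9 peaks summed to 89.5 and 93.1 CPM in the wild type and to 86.6 and 78.1 CPM in the mutant (log2 fold change -0.15, SE 0.10, edgeR adjusted p = 0.483). At its start the peak of Ldhb (chr6:142506731-142508308) had 38.9 and 39.4 CPM in the wild type and 36.0 and 33.9 CPM in the mutant (log2 fold change -0.16, SE 0.15, edgeR adjusted p = 0.567). Of its 9 peaks 5 had a log2 fold change above 0 and 4 below 0. Narrower windows leave out the called upstream peak. The log2 fold change of the sum was then -0.065 with the gene body and 5 kb and -0.17 with the gene body only.

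Pkm, which encodes the enzyme of the last step of glycolysis, had 12 peaks that summed to 206 and 199 CPM in the wild type and to 201 and 200 CPM in the mutant. The libraries of both genotypes fell in the same range (log2 fold change -0.02, SE 0.08). Its start peak (chr9:59655608-59658306), the strongest peak of the gene, had 83.9 and 72.6 CPM in the wild type and 76.8 and 70.1 CPM in the mutant. Inside the gene 3 peaks were lower in both mutant libraries without being called, among them one at chr9:59666606-59667901 with 19.5 and 20.5 CPM in the wild type and 16.7 and 12.9 CPM in the mutant (log2 fold change -0.43, SE 0.19, edgeR adjusted p = 0.197). Another peak inside the gene (chr9:59659150-59660146) was higher in both, with 13.9 and 13.3 CPM in the wild type and 15.6 and 14.7 CPM in the mutant. Over the 12 peaks of Pkm the groups did not overlap in 6 (50%), with the mutant above in 3 and below in 3. That share was 51.5% over all peaks.

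Fetal-type and adult-type genes were then compared as pairs, as the log2 ratio of their summed CPM in each library. For Slc2a1 over Slc2a4 the ratio was -2.63 and -2.74 in the wild type and -2.60 and -2.34 in the mutant. Both mutant libraries stood above the wild type, by 0.22 on average. For Hk1 over Hk2 it was -0.04 and 0.22 in the wild type and 0.05 and 0.33 in the mutant. For Pfkp over Pfkm it was -1.43 and -1.29 in the wild type and -1.39 and -1.23 in the mutant. For Ldha over Ldhb it was 0.30 and 0.14 in the wild type and 0.03 and 0.25 in the mutant. In the last 3 pairs the groups overlapped, and the mutant minus wild-type differences were 0.10, 0.05 and -0.08. The exact permutation test (two-sided) gave p = 0.333 for the first pair, the smallest that 2 against 2 libraries allow, and p = 0.667 for each of the others, with 0.667 for all 4 after Benjamini-Hochberg adjustment. These differences depended on which peaks were counted. On the start peaks alone the difference for Slc2a1 over Slc2a4 was 0.08 and the groups overlapped, as they also did with the gene body only (0.21) or only peaks nearest to the gene itself (0.17). With the gene body and 5 kb it was 0.30, with the mutant libraries above the wild type (exact permutation p = 0.333). The level of this ratio moved too, to -0.83 and -0.99 in the wild type with only the nearest peaks. For Pfkp over Pfkm the start peaks alone gave 0.25, with 0.38 and 0.49 in the wild type and 0.70 and 0.66 in the mutant, so that the mutant libraries stood above the wild type (exact permutation p = 0.333). They did so as well with only the nearest peaks (0.11). For Ldha over Ldhb the mutant libraries stood below the wild type with the gene body and 5 kb (-0.17, exact permutation p = 0.333). Over the sums, the median log2 fold change was 0.07 for the 4 fetal-type genes and -0.02 for the 5 adult-type genes.

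**Figure D4:**
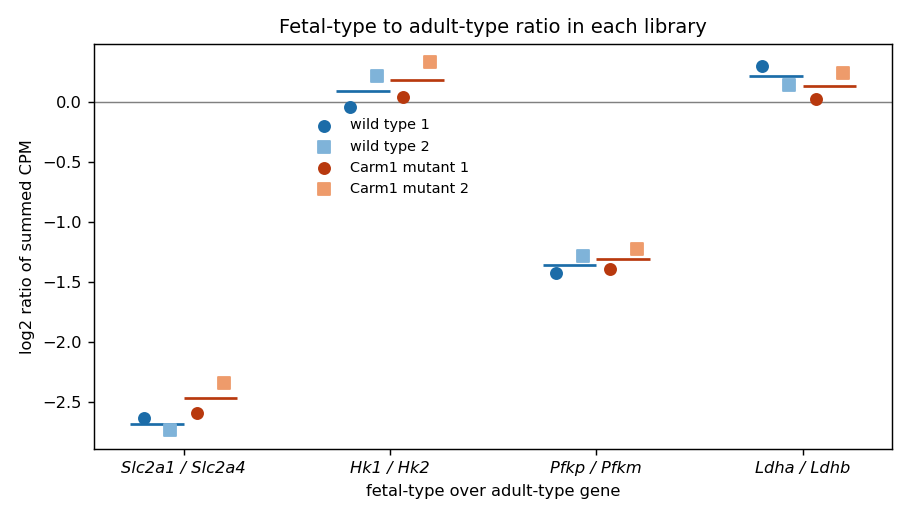
Log2 ratio of the summed CPM of the fetal-type gene to that of the adult-type gene for 4 pairs, with 1 point per library and a line at each genotype's mean. The mutant points lie above both wild-type points for Slc2a1 over Slc2a4, from -2.60 to -2.34 against -2.74 to -2.63, and the groups overlap in the other 3 pairs.

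The start peaks were also set in order by their level per kb of peak. In the wild type, Pkm (29.0 CPM per kb ± 2.97, SD, n = 2) and Slc2a4 (28.2 ± 2.65) came first and overlapped. They were followed by Ldhb (24.8 ± 0.25) and Hk1 (24.3 ± 0.91), which overlapped, and by Pfkfb2 (22.4 ± 1.69) and Ldha (21.5 ± 1.13), which overlapped too. Slc2a1 (17.9 ± 2.64) and Pfkm (17.2 ± 0.47) overlapped below these, and Pfkp (15.2 ± 1.23) and Hk2 (15.1 ± 0.21) came last and overlapped. After Pkm the 2 highest were adult-type, Slc2a4 and Ldhb, and the lowest 2 were 1 of each kind. In the mutant Slc2a4 came first, at 32.7 CPM per kb ± 4.85 (SD, n = 2), and Pfkm last, at 13.9 ± 0.96. None of the 10 start peaks had an unadjusted p under 0.05 or was called by edgeR, DESeq2 or limma voom.

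Of 27 other genes of glycolysis and of glucose, lactate and pyruvate transport, 26 had peaks by the same rule, 178 in all. Here 5 peaks were higher, 0 were lower and 173 were not called by edgeR, a share of 2.81% beside the 5.50% of all peaks. At an unadjusted p under 0.05 there were 20 higher and 10 lower peaks of the 178, against 21.8% of all peaks, and DESeq2 and limma voom each called 1 higher and 0 lower. The median log2 fold change was 0.07. The peak with the smallest p lay 16565 bp from Pgam1, the phosphoglycerate mutase gene, and close to an end of Rrp12 (chr19:41894940-41895306). It had 2.94 and 2.99 CPM in the wild type and 8.03 and 8.77 CPM in the mutant (log2 fold change 1.5, SE 0.27, edgeR adjusted p = 0.00423). Near Slc16a1, the lactate transporter MCT1, a peak had 1.41 and 1.03 CPM in the wild type and 3.04 and 3.41 CPM in the mutant (edgeR adjusted p = 0.0384). That call was lost with DESeq2 (0.139) or limma voom (0.0554) and without wild-type replicate 1 (0.0948) or replicate 2 (0.282), while the peak near Pgam1 was called in each of these fits.

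The other 3 higher peaks were counted at Pfkfb4, a paralog of Pfkfb2. Those lying 9902 and 17299 bp outside the gene were nearer to an end of Col7a1, so they belong to Pfkfb4 only by the distance rule. The nearer of them (chr9:108977972-108978370) had 1.24 and 1.19 CPM in the wild type and 1.03 and 11.8 CPM in the mutant. A single library, mutant replicate 2, carried it. Without that library its edgeR adjusted p was 0.845. The Pfkfb4 peak in the gene body (chr9:109027447-109027959) had 6.79 and 8.0 CPM in the wild type and 13.7 and 11.7 CPM in the mutant, a log2 fold change of 0.78 with adjusted p = 0.04997 by edgeR, at the threshold, and it was not called by DESeq2 (0.0952) or limma voom (0.0559). None of the 26 sums was called by edgeR, DESeq2 or limma voom, with 3, 2 and 3 at an unadjusted p under 0.05. Over all genes edgeR called 3.56% and had 3031 of 16983 at an unadjusted p under 0.05. The smallest p belonged to Slc2a8, a glucose transporter gene, with 134 and 117 CPM in the wild type and 155 and 146 CPM in the mutant (log2 fold change 0.26, SE 0.09, edgeR adjusted p = 0.145).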

How the data were processed

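ATAC-seq libraries of mouse heart, 2 per genotype, were analysed from the raw counts per peak that the authors deposited, whole numbers without normalization. FastQC, Bowtie2 and the build mm10 are named, without versions, in the submitters' processing notes. Not given in the sources used here are the peak caller, read filters, duplicate handling and transposase shift, any of which could change the counts. Gene ends came from a RefSeq table of GRCm38.p6, the assembly of mm10, and transcription starts from its promoter table; at Slc2a4 either gene end stood in.

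Counts of peaks, and of summed peaks per gene, were tested by genotype alone with edgeR's quasi-likelihood fit (version 4.0.16, R 4.3.3) after TMM scaling and filterByExpr, which removed 0 peaks, with Benjamini-Hochberg adjustment over all features. Sums of neighbouring genes share peaks. Standard errors come from the test statistic. The start peak was the strongest within 1 kb of a listed start. Exact permutation tests compared the 4 pairs. The scripts were tested on simulated data. There the peak test called 2.5% of the peaks changed 1.5-fold, 30.9% of those changed 2-fold and 75% of those changed 3-fold. For sums these shares were 70.1%, 92.3% and 98.3%. The simulation had 66 called peaks and 178 called sums, against 4839 and 604 in the data. A smaller unadjusted p was therefore needed there, and these shares do not give the recovery in the data. A peak or sum that was not called may still differ. DESeq2 1.42.0, limma 3.58.1, other scalings, filters, windows, each library left out and a replicate block were alternatives. The text names all 10 genes with their sum, start peak and peak of smallest p, and every called peak. Of the other list it names up to 3 called peaks in each direction and the sum of smallest p. Other peaks named (at Pfkfb2, Ldhb, Pkm, Pfkm, Pfkfb4, Tie1, Ryr2, Tnnt2, Pln, Cdh5 and Erg) were chosen after their values were seen. Members and lists were chosen with earlier results of these data known.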

Additional observations from a re-analysis of the deposited data

How the results depend on the processing

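Of the calls at the 10 genes, those of Pfkfb2 and Ldhb passed with every other scaling, filter and tool tried and missed the threshold in fits that left out a wild-type library. That of Pkm missed it with DESeq2 and limma voom as well. Such fits leave 1 library in a genotype and assume that it varies like the other pair. Leaving out 1 library gave 0 to 3 higher and 0 to 3 lower peaks at the 10 genes, 1 to 9 higher and 0 to 4 lower peaks and 0 to 1 sums on the list of other glycolysis genes, and 1006 to 8439 peaks and 116 to 1285 sums over the whole table, against 4839 and 604 with all libraries. DESeq2 called 0 higher peaks at the 10 genes and 2373 peaks in all, and limma voom 0 higher. On the other list, total counts or a mean CPM of at least 2 gave 3 higher peaks, and DESeq2 or limma voom 1. Total counts gave 312 higher and 206 lower sums over all genes, against 446 and 158. At an adjusted p under 0.10 there were 5 higher peaks and 1 sum at the 10 genes, 9 higher and 2 lower peaks on the other list, and 8951 peaks and 1092 sums in all. With the gene body only, the gene body and 5 kb, or only peaks nearest to the gene itself, 0 higher and 1 lower peak were counted. The narrower windows leave out the Ldhb and Pkm peaks, the nearest-gene rule leaves out those of Pfkfb2 and Pkm, and the gene body only gave 381 sums in all.

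With the replicate number as a block there were 5 higher peaks and 1 sum (Slc2a1) at the 10 genes, 9 higher and 2 lower peaks on the other list, and 9724 peaks and 1373 sums in all. The labels do not say that a number marks a pair; the replicate difference (1 minus 2) correlated between the genotypes at r = 0.106 across peaks, which are not independent replicates.

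For Hk1 over Hk2 the difference in log2 ratio was -0.068 on start peaks only and ranged from -0.043 to 0.24 over the fits that left out 1 library. That range was -0.033 to 0.13 for Pfkp over Pfkm, with 0.25 on start peaks only, and -0.19 to 0.025 for Ldha over Ldhb, with -0.17 for the gene body and 5 kb. Fold changes near 0 turned in sign, none of them called. The log2 fold change of the Pfkm sum was -0.023 with total counts, -0.044 with the gene body and 5 kb, -0.058 with the gene body only, and -0.081 to 0.10 with 1 library left out. With 1 library left out, the sums ranged from -0.0017 to 0.17 for Hk1, from -0.077 to 0.054 for Hk2, from -0.28 to 0.0023 for Pfkfb2 and from -0.038 to 0.015 for Pkm. The start peaks ranged from -0.078 to 0.027 for Hk1, from -0.052 to 0.14 for Hk2, from -0.14 to 0.028 for Pfkp, from -0.27 to 0.13 for Pfkfb2 and from -0.19 to 0.021 for Pkm. The cause of these changes was not tested. The 3 called peaks had at least 70 counts in every library.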
